A study of Homo sapiens with 24 samples.

Results

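Keratin genes were examined in A549 and H1975 cells, which are established lines of human lung adenocarcinoma. A probe was taken as a keratin probe if the array files gave its gene name as KRT followed by digits and at most a letter A, B or C, so that keratin-associated proteins and pseudogenes were left out. Of 34127 probes on the array, 61 met this rule and covered 55 of 25992 gene names, and each gene was represented by the probe with the highest mean signal over all arrays. Both lines received Pirfenidone, an anti-fibrotic drug, at 0.75 mg/ml, or the matching volume of PBS, in which the drug had been dissolved, and RNA was taken at 6 h or 24 h. This gave 8 groups of 3 samples (A549 or H1975, PBS or Pirfenidone, early or late), measured on 24 single-dye Agilent arrays with 1 sample per array. Both treatments were given in culture medium with fetal calf serum. No label tells whether the 3 samples of a group came from separate cultures, so p-values measure the spread between these samples only. The questions were which keratins each line carried, how the lines differed with PBS alone, and whether Pirfenidone changed any keratin.

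Keratins are the intermediate filament proteins of epithelial cells, and a filament is built from pairs of a type I and a type II chain. Type I genes lie mainly together on chromosome 17 and type II genes on chromosome 12, where the type I gene KRT18 lies as well. Single-layered epithelia such as those of the lung use the simple keratins KRT7, KRT8, KRT18 and KRT19, the basal layer of stratified epithelia uses KRT5 with KRT14, the layers above switch to other pairs, and hair uses a set of its own.

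Levels are log2 values of the processed signal relative to the 75th percentile of the same array, so 0 is the level of that percentile, and levels of different probes are not set against each other. Summed levels of gene lists are the exception. They add linear levels of different probes, so the brightest probes weigh most. The scanner software marks a spot that is well above its background, and a probe entered the tests if the 3 arrays of any group all carried this mark, which held for 23827 probes. A difference was called in limma if its Benjamini-Hochberg adjusted p over all probes tested was at most 0.05 and it reached 2-fold (1 on the log2 scale) in either direction. Counts of genes with an unadjusted limma p under 0.05 are given without the share of all probes. They therefore do not show an excess over other genes. The share of probes with the mark was 62.7% to 69.5% per array, and saturated spots numbered 0. In A549 at 24 h the pair of arrays of replicate 3 stood apart. Over all probes tested, its Pirfenidone minus PBS differences correlated with those of pairs 1 and 2 at r = -0.38 and -0.55, while pairs 1 and 2 correlated at 0.39. The total of called keratins in each comparison that uses this pair is therefore given with and without it. Other counts include the pair. The labels were kept, and whether PBS and Pirfenidone were exchanged in this pair was not tested.

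AKR1B10 and AKR1C1, aldo-keto reductases that are abundant in A549, had log2 differences of H1975 minus A549 of -9.72 and -9.59 with PBS at 6 h. CDKN2A was higher in H1975 by 4.64, and its probe was well above background on all 24 arrays, those of A549 included, so it gave no sign of identity. The epithelial surface gene EPCAM was higher in H1975 by 3.49 at 6 h and 3.80 at 24 h. All 7 epithelial genes checked were well above background in every H1975 group, 5 or 6 of them in the A549 groups, and their summed linear level lay between 3.02 and 3.27 in the A549 groups and between 48.6 and 64.8 in the H1975 groups. Genes of other cell types also differed between the lines. Of 6 fibroblast genes, 2 were well above background on all 3 arrays in every A549 group and 3 in every H1975 group, and the summed linear level lay between 0.348 and 0.571 in the A549 groups and between 4.76 and 6.44 in the H1975 groups, mainly through COL1A1 and COL1A2. DCN and COL3A1 were not well above background in any group. The summed level of 5 leukocyte genes lay between 1.34 and 1.60 in A549 and between 3.32 and 4.02 in H1975, and that of 4 endothelial genes between 0.0236 and 0.0263 in A549 and between 0.0685 and 0.0901 in H1975. Neither list had a called gene in a Pirfenidone comparison, nor had the fibroblast list, and their part in the keratin differences between the lines was not tested.

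Of the 55 keratin genes, 29 were tested, 20 stood well above background throughout the 24 arrays, and 18 on none. The lines shared most of the set. A549 carried 27 keratins on all 3 arrays of at least 1 group and H1975 carried 26, of which 24 were common, while KRT6A, KRT6C and KRT222 reached this only in A549 and KRT13 and KRT76 only in H1975. Among 7 simple keratins 5 were tested (KRT7, KRT8, KRT18, KRT19 and KRT80), among 4 basal keratins 3 (KRT14, KRT15 and KRT17), and among 4 keratins of activated or wounded epidermis 3 (KRT6A, KRT6C and KRT16). Of 13 keratins of suprabasal layers 7 were tested (KRT3, KRT4, KRT9, KRT10, KRT13, KRT76 and KRT78), of 9 keratins of the hair follicle sheaths 1 (KRT73), and of 17 hair keratins 9 (KRT31, KRT32, KRT33A, KRT34, KRT39, KRT81, KRT83, KRT85 and KRT86). KRT222, a keratin-like gene, was put in no class.

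The keratins that no array showed well above background included KRT5, the usual partner of KRT14, as well as KRT6B, KRT2, KRT12, KRT24 and KRT79. The remainder were the follicle keratins KRT25, KRT27, KRT28, KRT71, KRT72 and KRT74 and the hair keratins KRT35, KRT36, KRT37, KRT38, KRT40 and KRT82. Another 8 were well above background on 1 to 7 arrays, too few for a test. These were KRT20, an intestinal keratin (7 arrays, all A549), KRT75 (4), KRT26 and KRT84 (3 each), KRT33B (2) and KRT1, KRT23 and KRT77 (1 each). All of this was read from the brightest probe of each gene. A second KRT40 probe, also not tested, was well above background on at least 1 H1975 array with PBS at 24 h.

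**Figure D1:**
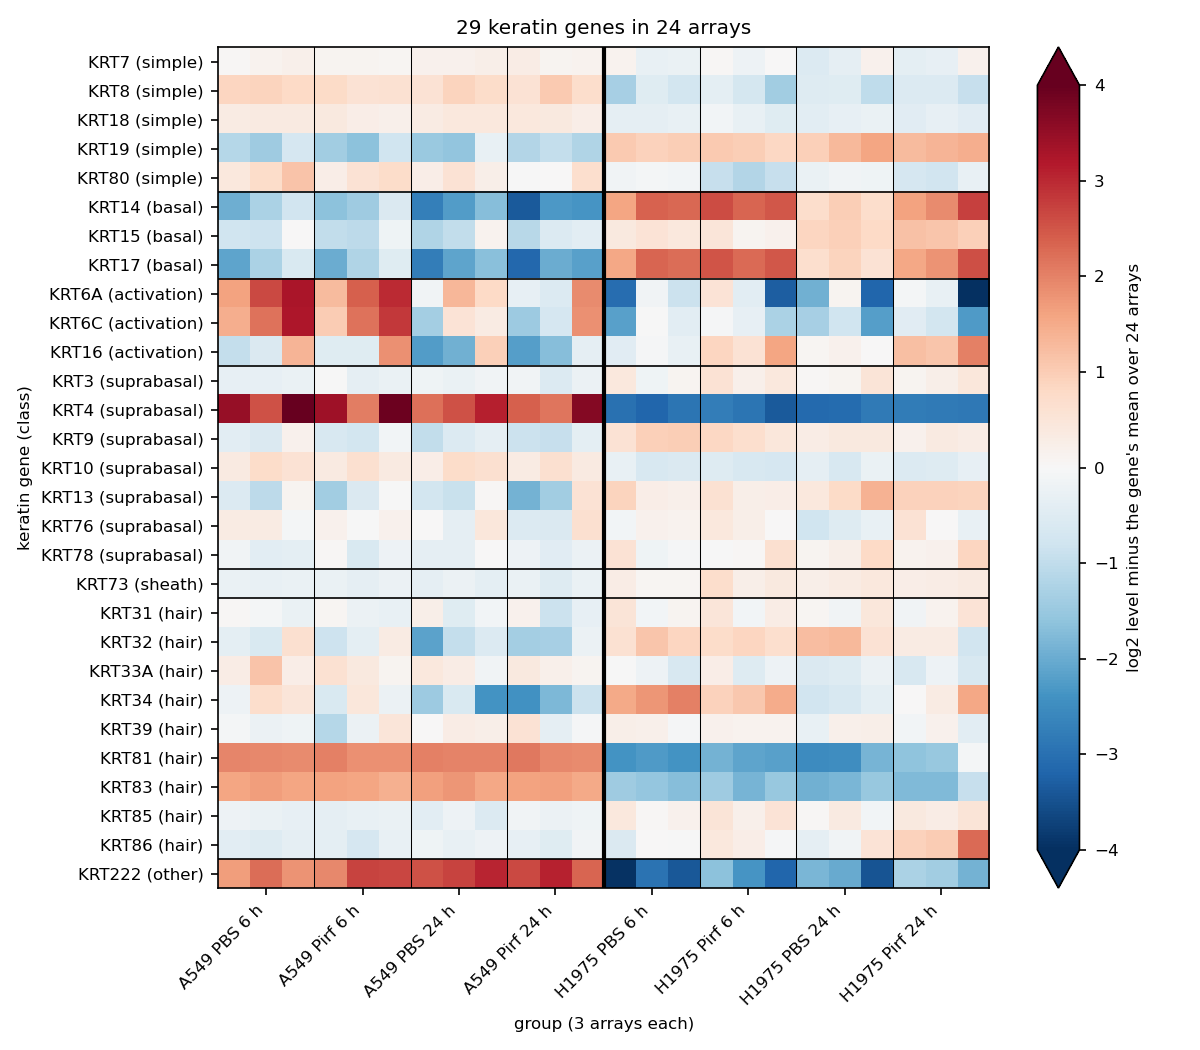
Log2 level of the 29 tested keratins (rows, by class) on the 24 arrays (columns, 3 per group), each minus the mean of that gene over the 24 arrays. KRT4, KRT81, KRT83 and KRT222 are high on every A549 array and low on every H1975 array, KRT14, KRT17 and KRT19 run the other way, and values beyond 4 in either direction have the end color.

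Several keratins are close copies, so what a probe can bind matters for the hair and basal keratins that carried the main differences. The sequences of the dimmer KRT83 probe and of the KRT14 and KRT17 probes are shown, the first because it lists another keratin among its targets and the others because KRT14 and KRT17 differed alike between the lines. Each line gives the 60 bases as the array files hold them, 5′ to 3′, and capitals mark the longest run that the probe shares with a probe of another keratin.
KRT83, dimmer probe: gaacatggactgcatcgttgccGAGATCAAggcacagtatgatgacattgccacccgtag
KRT14: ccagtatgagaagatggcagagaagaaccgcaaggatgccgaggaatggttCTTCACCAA
KRT17: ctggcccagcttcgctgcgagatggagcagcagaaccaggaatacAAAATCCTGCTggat

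On hg19 the dimmer KRT83 probe lies at chr12:52710677-52710736, the KRT14 probe at chr17:39740013-39740072 and the KRT17 probe at chr17:39776976-39777035, all on the minus strand. The shared runs were short, 8 bases for KRT83 (with a KRT8 probe), 9 for KRT14 (with a KRT28 probe) and 11 for KRT17 (with a KRT26 probe), and the KRT14 and KRT17 probes shared at most 6 bases with each other. The array files nevertheless list transcripts of 4 keratins, KRT81, KRT83, KRT85 and KRT86, for the brighter KRT83 probe and of KRT83 and KRT86 for the dimmer one. No other keratin probe listed a second keratin. The KRT81 probe (chr12:52679699-52679758, minus strand) and the KRT86 probe (chr12:52702840-52702897, plus strand) listed their own gene alone. The probes were not searched against the genome, and no exon annotation of hg19 was used. A run shared between probes does not show which transcripts a probe binds. Whether the KRT14 and KRT17 probes each measured their own gene alone was therefore not tested.

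With PBS the lines differed in 13 keratins at 6 h, 5 higher and 8 lower in H1975 than in A549, and in 11 keratins at 24 h, 6 higher and 5 lower. Over all probes tested, 32.4% were called at 6 h (15.3% lower in H1975) and 32.9% at 24 h (14.9% lower). Of the 29 tested keratins, 16 were called at either time, 8 at both and 13 at neither, with no share of all probes to set beside these 3 counts. Across the 29 the median difference was 0.25 at 6 h and 0.24 at 24 h, beside 0.06 and 0.08 for all probes tested. Without the A549 arrays of replicate 3 at 24 h, the count at 24 h was 13, with 7737 probes called in place of 7844.

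**Figure D2:**
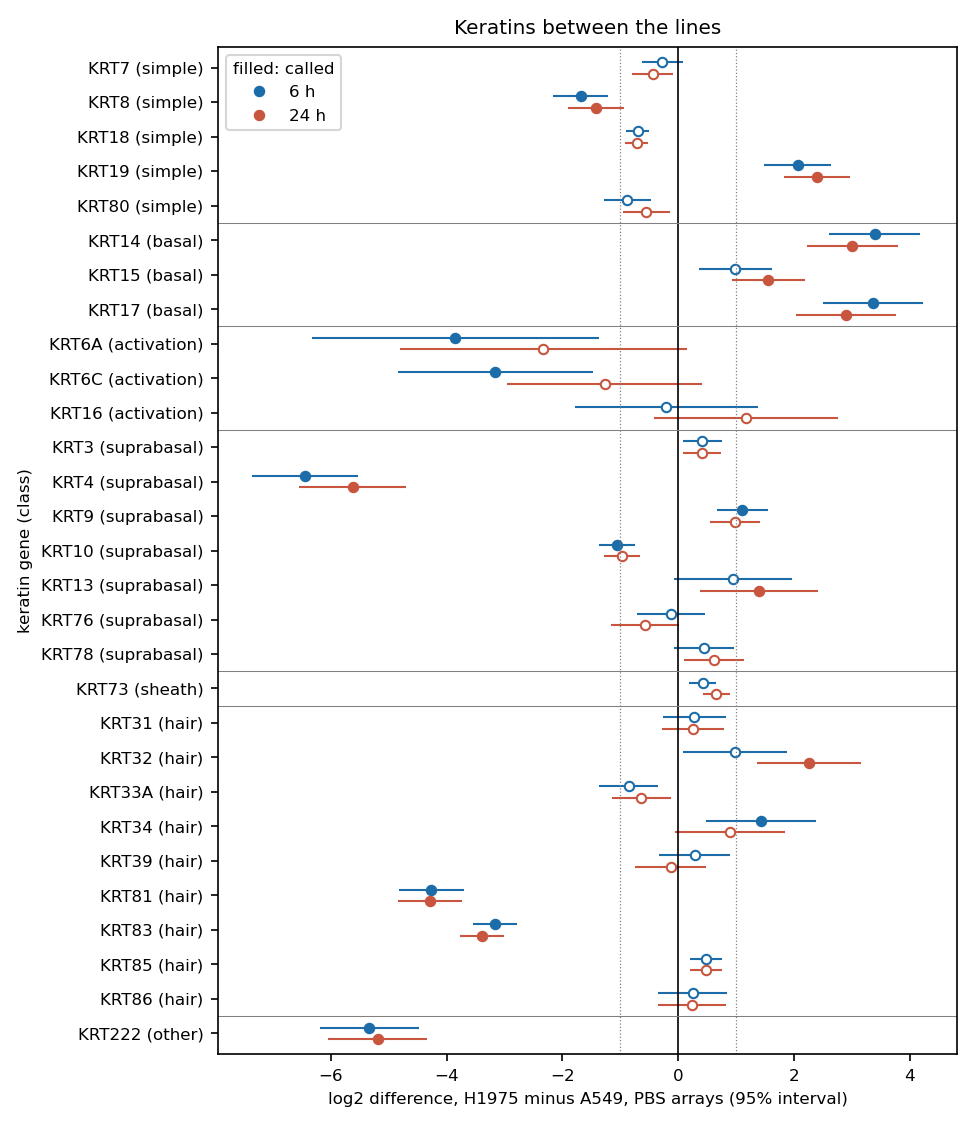
Log2 difference of H1975 minus A549 with PBS at 6 h (blue) and 24 h (red) for the 29 tested keratins, with 95% intervals of the fit of 8 groups with 3 arrays each; filled points were called and dotted lines mark 2-fold. KRT4, KRT222, KRT81 and KRT83 lie far to the left, KRT14, KRT17 and KRT19 to the right, and the points of KRT7, KRT18 and KRT80 within the 2-fold limit.

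Simple keratins split. KRT8, the type II partner of KRT18, was lower in H1975, KRT19, a type I chain without a tail domain, was higher, and KRT7, KRT18 and KRT80 were not called. KRT8 lay at 5.76, 5.78 and 5.71 with PBS at 6 h in A549 and at 3.58, 4.42 and 4.18 in H1975. At 24 h it lay at 5.49, 5.80 and 5.64 in A549 and at 4.37, 4.42 and 3.89 in H1975. Every A549 array was above every H1975 array, and the log2 difference was -1.69 (SE 0.23, adjusted p = 3.5e-06) at 6 h and -1.42 (SE 0.23, adjusted p = 2.8e-05) at 24 h. A second KRT8 probe gave -1.64 and -1.37, both called. The third, which the files place at chr12:53343241-53343300 and assign to a non-coding transcript, gave 0.15 and 0.31, neither called, and with the mean of all 3 probes KRT8 was no longer called at 24 h (-0.82, under 2-fold).

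KRT18 lay between 7.01 and 7.11 on the 6 PBS arrays of A549 (median 7.04) and between 6.28 and 6.42 on those of H1975 (median 6.34). The lines did not overlap, and the difference of -0.70 (SE 0.09) at 6 h and -0.72 (SE 0.09) at 24 h had an adjusted p of 2.6e-06 and 1.9e-06 but was under the 2-fold limit. On its dimmer probe KRT18 differed by -1.61 and -1.49, both called, so the probes agreed in direction and not in size.

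KRT19 ran the other way. It lay at 4.75, 4.46 and 5.20 in A549 and at 6.93, 6.81 and 6.86 in H1975 at 6 h, and at 4.39, 4.32 and 5.59 in A549 and at 6.83, 7.18 and 7.48 in H1975 at 24 h. H1975 was higher by 2.06 (SE 0.27, adjusted p = 2.7e-06) at 6 h and 2.39 (SE 0.27, adjusted p = 3.9e-07) at 24 h, without overlap. KRT7, a marker of lung adenocarcinoma, ranged from 7.47 to 7.68 in A549 and from 6.88 to 7.62 in H1975 with PBS, which overlapped. Its difference was -0.27 (95% interval -0.63 to 0.08) at 6 h and -0.44 (-0.80 to -0.08) at 24 h. KRT80 differed by -0.88 (adjusted p = 0.00066) and -0.55 (adjusted p = 0.0192), also under 2-fold.

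Of the 3 tested basal keratins 2 were higher in H1975 at 6 h and 3 at 24 h. KRT14 and KRT17, a keratin of basal cells in skin appendages that injured epidermis also makes, were dim in A549 and differed almost alike. With PBS at 6 h KRT14 lay at -4.80, -4.11 and -3.61 in A549 and at -1.28, -0.49 and -0.57 in H1975, and at 24 h at -5.59, -5.10 and -4.56 in A549 and at -2.16, -1.89 and -2.17 in H1975. KRT17 lay at -4.69, -3.87 and -3.21 in A549 and at -1.04, -0.26 and -0.36 in H1975 at 6 h, and at -5.36, -4.70 and -4.27 in A549 and at -1.93, -1.69 and -2.01 in H1975 at 24 h. No A549 array reached an H1975 array for either gene. The difference was 3.40 (SE 0.38) at 6 h and 3.01 (SE 0.38) at 24 h for KRT14, and 3.37 (SE 0.41) and 2.90 (SE 0.41) for KRT17, with adjusted p between 2.4e-07 and 6.5e-06.

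KRT15, which marks basal stem cells of the hair follicle, was called at 24 h alone. It lay at -1.43, -1.20 and -0.09 in A549 and at 0.62, 0.75 and 0.59 in H1975 at 24 h, a difference of 1.56 (SE 0.30, adjusted p = 0.00018). At 6 h it lay at -1.01, -1.06 and -0.21 in A549 and at 0.17, 0.32 and 0.19 in H1975, a difference of 0.99 (adjusted p = 0.0082), just under the 2-fold limit. Replicate 3 of A549 was the array nearest to H1975 at both times. KRT5, the type II chain of basal cells, and TP63, the transcription factor that defines them, were not well above background on any array of either line.

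**Figure D3:**
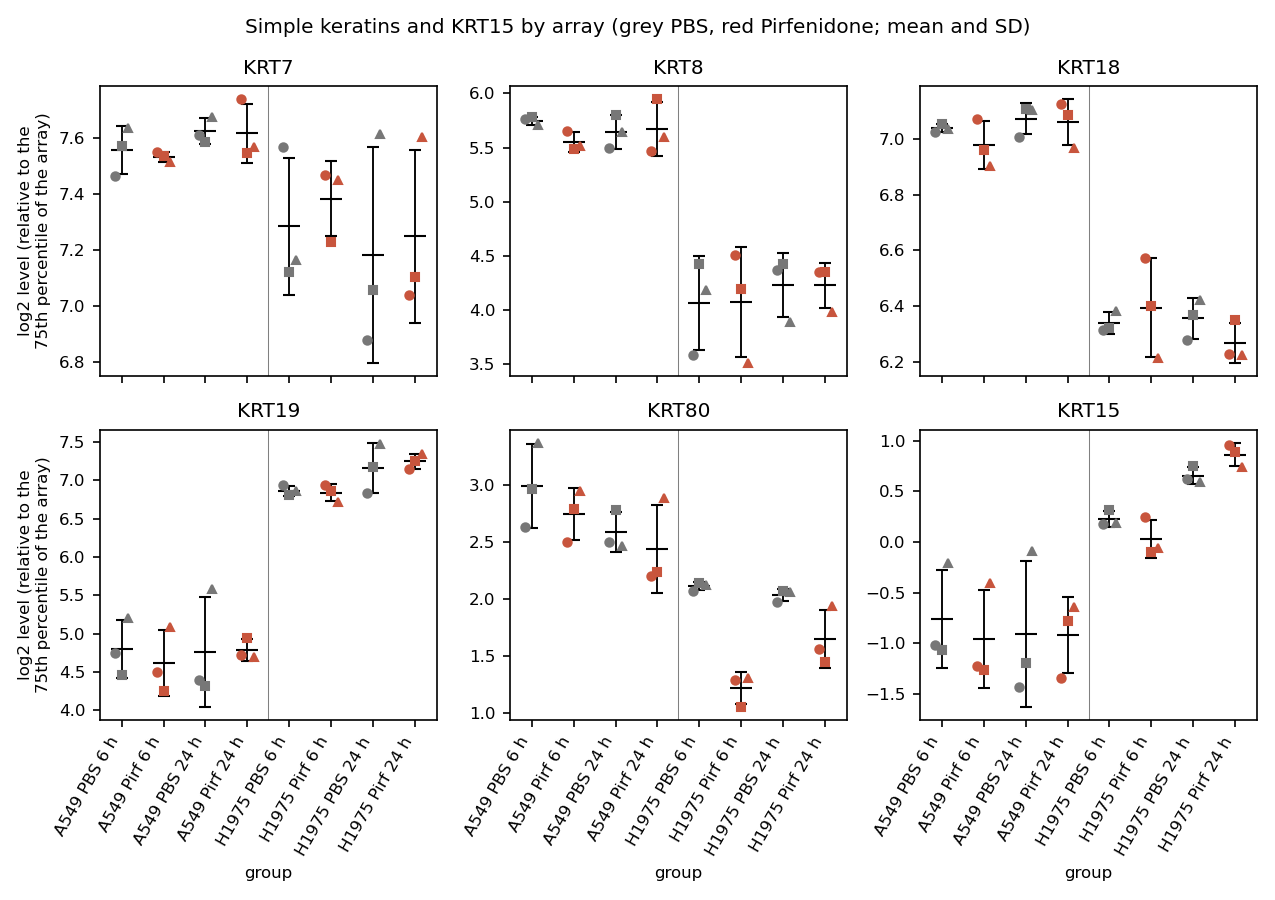
Log2 level of the 5 tested simple keratins and of the basal keratin KRT15 on each array (points; circle, square and triangle are replicates 1, 2 and 3), with mean and SD (n = 3) per group, PBS in grey and Pirfenidone in red. KRT8 steps down and KRT19 and KRT15 step up from A549 to H1975, KRT18 steps down by less than 1, the KRT7 points of the lines overlap, and KRT80 dips in H1975 with Pirfenidone at 6 h.

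Of the 3 tested keratins of activated epidermis, which wounded skin makes, 2 were lower in H1975 at 6 h. At 24 h 0 were called by limma, and 0 had an unadjusted p under 0.05. KRT6A lay at -3.19, -2.13 and -1.53 with PBS at 6 h in A549 and at -7.83, -4.92 and -5.65 in H1975, a difference of -3.85 (SE 1.18, adjusted p = 0.0090) that was lost without the H1975 array of replicate 1 (adjusted p = 0.0541). At 24 h it lay at -4.93, -3.45 and -3.99 in A549 and at -6.73, -4.67 and -7.95 in H1975, where the lines overlapped and the difference of -2.33 was not called (adjusted p = 0.0991). KRT6C was not well above background on any PBS array of H1975, and at 6 h it was at least 4.64-fold higher in A549 (adjusted p = 0.0023). KRT16, the type I partner of KRT6A, was not called at either time. It varied most in A549, where it ranged from -5.68 to -2.10 on the 6 PBS arrays with both arrays of replicate 3 the highest, against -3.91 to -3.26 in H1975. These probes were close to background, and with normexp background correction KRT6C lost its call (-1.24, adjusted p = 0.107).

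Among suprabasal keratins KRT4, a keratin of stratified mucosa such as the esophagus, gave the largest difference of the 29. It lay at 0.17, -0.78 and 0.87 in A549 and at -6.31, -6.51 and -6.26 in H1975 at 6 h, and at -1.11, -0.78 and -0.22 in A549 and at -6.45, -6.39 and -6.15 in H1975 at 24 h. The lines were far apart, with a difference of -6.45 (SE 0.44, adjusted p = 2.4e-10) at 6 h and -5.62 (SE 0.44, adjusted p = 1.9e-09) at 24 h. Its partner in mucosa, KRT13, went the other way, with a difference of 0.95 (adjusted p = 0.102) at 6 h and 1.39 (SE 0.49, adjusted p = 0.0196) at 24 h, when it lay at -6.76, -6.92 and -5.97 in A549 and at -5.60, -5.26 and -4.63 in H1975. That call was lost without the A549 array of replicate 1 or 2 or the H1975 array of replicate 3 (adjusted p = 0.0594, 0.0727 and 0.0866), and with normexp background correction (0.37, adjusted p = 0.607). With PBS the KRT13 probe was well above background on 2 of 3 A549 arrays at 6 h and on 1 of 3 at 24 h, so its difference is one against signals near background.

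KRT10, which differentiating epidermis makes with KRT1, lay between 4.44 and 4.90 on the PBS arrays of A549 and between 3.51 and 3.90 on those of H1975. It differed by -1.06 (SE 0.15, adjusted p = 4.9e-06) at 6 h, just past the 2-fold limit, and by -0.98 (adjusted p = 1.25e-05) at 24 h, just inside it. KRT9, a keratin of palms and soles, lay between -5.76 and -4.61 in A549 and between -4.50 and -3.80 in H1975, and differed by 1.11 (SE 0.21, adjusted p = 0.00015) at 6 h and by 0.98 (adjusted p = 0.00049) at 24 h. Both stood so near the limit that leaving out the A549 array of replicate 2 at 6 h took their call away (-0.97 for KRT10, 0.96 for KRT9), as did the H1975 array of replicate 2 for KRT10 (-0.99). At 6 h KRT9 also lost its call with normexp background correction (0.63, adjusted p = 0.144) and with run as a block (0.98), and KRT10 with quantile normalization (-0.93) and with scan day as a block (-0.96). At 24 h KRT9 was called once the A549 arrays of replicate 3 were left out. KRT3, KRT76 and KRT78 were not called, nor was KRT73 of the inner root sheath. KRT222 lay between -3.97 and -2.61 on the PBS arrays of A549 and was not well above background on those of H1975, so that A549 was at least 12.7-fold higher at 6 h and at least 20.8-fold higher at 24 h (adjusted p = 1.3e-09 and 2.0e-09). With normexp background correction, which raises dim signals by an offset, its differences were -2.33 and -2.81, both called. Such a bound sets the mean of the brighter group against a floor for the dimmer one, the larger of the probe's own value and the lowest signal well above background on each array. It takes no account of the spread between arrays.

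Of the 9 tested hair keratins 3 were called at each time, 1 higher and 2 lower in H1975. KRT81, a type II chain of the hair cortex, was bright in A549 and lay at 7.17, 7.13 and 7.11 there and at 2.82, 2.95 and 2.84 in H1975 with PBS at 6 h. At 24 h it lay at 7.25, 7.21 and 7.20 in A549 and at 2.70, 2.75 and 3.36 in H1975. Every A549 array was far above every H1975 array, and the difference was -4.27 (SE 0.27, adjusted p = 6.6e-11) and -4.29 (SE 0.27, adjusted p = 6.2e-11). Within runs (arrays whose names carry the same day) that held both lines it was -4.30 and -4.18 at 6 h and -3.84 and -4.52 at 24 h.

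KRT83, a neighbor of KRT81 and a hair cortex chain as well, lay between 5.55 and 5.76 on the PBS arrays of A549 and between 2.09 and 2.59 on those of H1975 by its brighter probe, a difference of -3.16 (SE 0.18, adjusted p = 1.8e-11) at 6 h and -3.39 (SE 0.18, adjusted p = 6.4e-12) at 24 h. The dimmer probe, which lay between 2.72 and 3.25 in A549 and between -4.13 and -2.97 in H1975, gave -6.85 (SE 0.37) and -6.69 (SE 0.37). Both probes were called and agreed in direction, with different sizes. As the brighter probe also lists KRT81, KRT85 and KRT86 and the dimmer one KRT86, how much of either difference came from KRT83 was not tested. KRT86, which lies between KRT81 and KRT83, differed by 0.25 (95% interval -0.34 to 0.84) at 6 h and 0.24 (-0.35 to 0.83) at 24 h. It lay between 0.34 and 0.70 in A549 and between 0.30 and 1.41 in H1975 with PBS, which overlapped.

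The type I hair keratins were dim. KRT32 lay at -7.30, -6.12 and -5.71 in A549 and at -3.91, -3.86 and -4.58 in H1975 with PBS at 24 h, a difference of 2.26 (SE 0.43, adjusted p = 0.00017), and differed by 0.98 at 6 h (adjusted p = 0.0590). The lowest of these A549 values was under the lowest signal well above background on its array (-6.59). Under alternatives the KRT32 difference at 24 h fell as low as 1.13, and the call ended only with Holm adjustment. KRT34 lay at -5.38, -4.50 and -4.70 in A549 and at -3.67, -3.42 and -3.18 in H1975 at 6 h, a difference of 1.43 (SE 0.45, adjusted p = 0.0105), and differed by 0.89 at 24 h (adjusted p = 0.0964). At 6 h KRT34 was not called without the A549 array of replicate 1 (1.17, adjusted p = 0.0553), nor with normexp background correction or Holm adjustment. The other 4, KRT31, KRT33A, KRT39 and the type II chain KRT85, were not called at either time.

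Pirfenidone left the keratins of A549 without a call. At 6 h and at 24 h 0 of 29 tested keratins were called by limma, and 0 had an unadjusted p under 0.05, beside 0.176% of all probes called at 6 h and 0.0126% at 24 h. None of the alternatives tried called a keratin in these comparisons. The differences of the 29 lay between -0.45 and 0.53 at 6 h and between -0.45 and 0.26 at 24 h, with a median of -0.08 at both times beside -0.01 and -0.02 for all probes tested. For the 5 simple keratins the 95% intervals ran from -0.76 to 0.39 at 6 h and from -0.55 to 0.60 at 24 h, so a 2-fold change of a simple keratin lay outside them. Those at 24 h come from the fit with the arrays of replicate 3 included. The intervals of KRT6A and KRT6C were wider, -2.77 to 2.19 for KRT6A at 6 h.

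Without the arrays of replicate 3 in A549 at 24 h, 0 of 29 were still called, the differences lay between -1.08 and 0.48, and the smallest adjusted p was 0.512. KRT19 shows what this pair did. With PBS it lay at 4.39, 4.32 and 5.59 and with Pirfenidone at 4.72, 4.95 and 4.70, so Pirfenidone was the higher in pairs 1 and 2 and the lower in pair 3, and the difference of 0.02 with all arrays became 0.48 without the pair (adjusted p = 0.654). KRT81 was steady in A549 and lay between 7.04 and 7.33 on all 12 arrays, and KRT7 lay between 7.47 and 7.74.

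**Figure D4:**
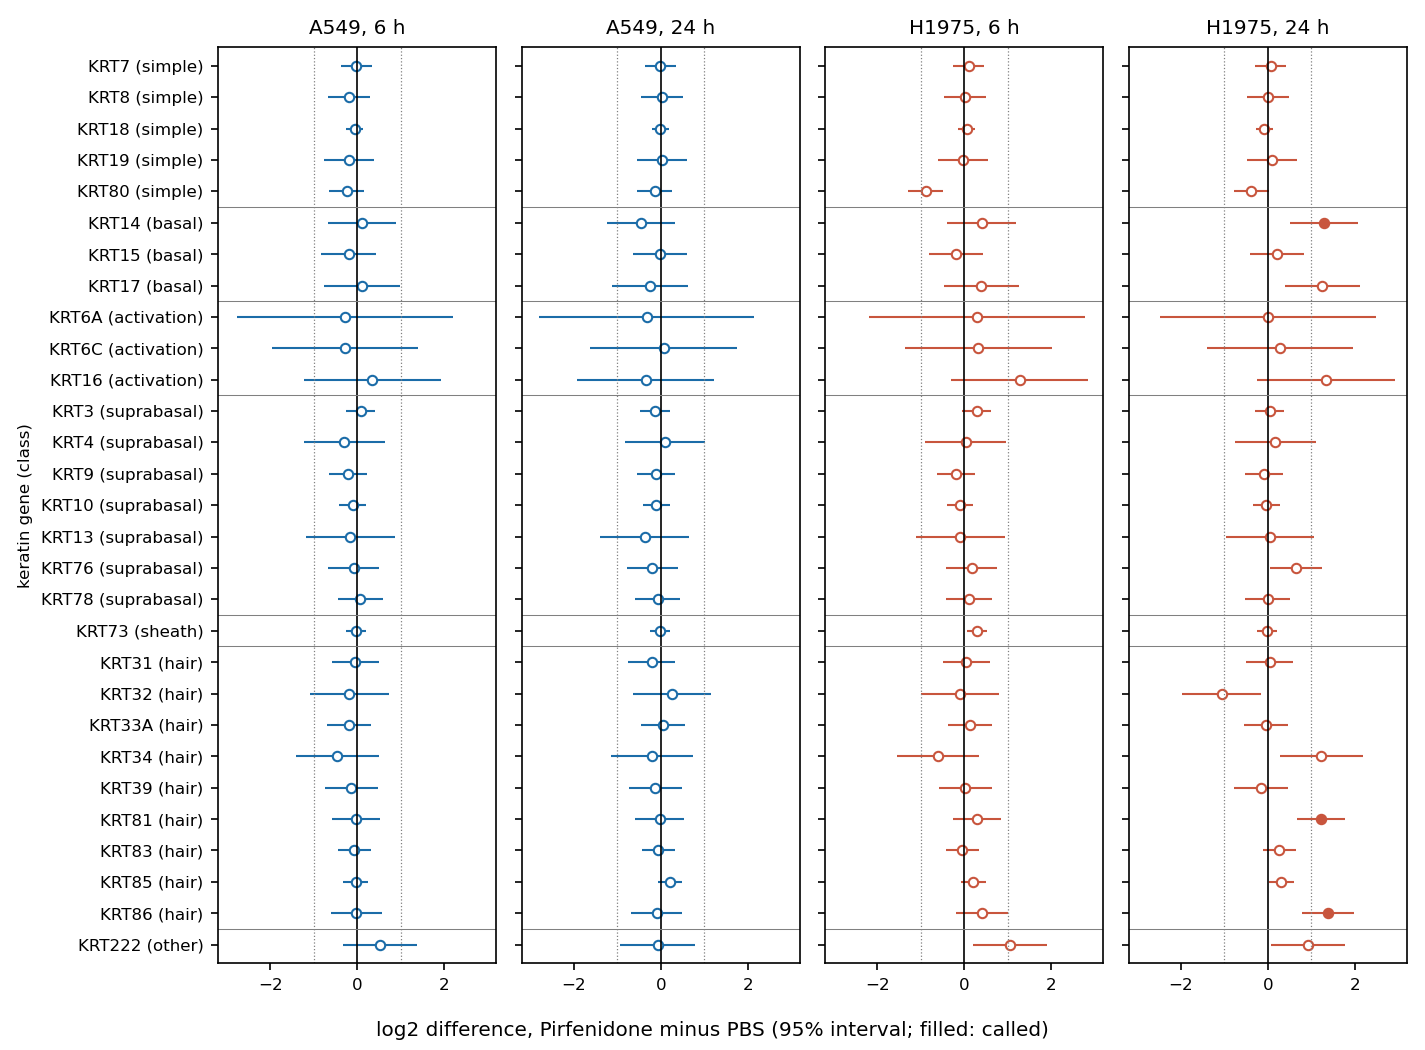
Log2 difference of Pirfenidone minus PBS for the 29 tested keratins in A549 (blue) and H1975 (red) at 6 h and 24 h, with 95% intervals of the fit of 8 groups with 3 arrays each; filled points were called and dotted lines mark 2-fold. In A549 all points lie within the 2-fold lines, in H1975 at 6 h KRT80 lies to the left of 0 with its interval clear of it, and in H1975 at 24 h KRT14, KRT81 and KRT86 are called.

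In H1975 no keratin was called at 6 h by limma, where 0.491% of all probes were, while 3 of 29 had an unadjusted p under 0.05 (KRT80, KRT73 and KRT222). The KRT222 probe was not well above background on any H1975 array at 6 h, so its value compares signals below that mark. KRT80, a type II keratin of many epithelia, came nearest. It lay at 2.07, 2.13 and 2.12 with PBS and at 1.29, 1.05 and 1.31 with Pirfenidone, without overlap. The difference of -0.89 (SE 0.19, adjusted p = 0.0247) was under the 2-fold limit. In each of the 3 runs it pointed the same way, with -0.76, -0.84 and -1.07. At 24 h KRT80 differed by -0.38 (SE 0.19, adjusted p = 0.253), and in A549 at 6 h by -0.24. The difference between the lines in the change at 6 h was -0.65 (SE 0.27) and was not called, so the KRT80 value was not shown to be particular to H1975.

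At 24 h in H1975 3 of 29 tested keratins rose and 0 fell, beside 0.89% of all probes tested that rose and 1% that fell (1.89% in either direction). The 3 were the hair keratins KRT86 and KRT81 and the basal keratin KRT14. An unadjusted p under 0.05 was found for 9 of 29, with no share of all probes to set beside this count. As the RNA came from whole cultures, a few cells with much of a keratin and many cells with a little more of it cannot be told apart.

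KRT86 lay at 0.50, 0.74 and 1.41 with PBS and at 1.79, 1.88 and 3.14 with Pirfenidone, so every treated array was above every PBS array. It rose by 1.38 (SE 0.28, 95% interval 0.79 to 1.97, adjusted p = 0.0097), which is 2.61-fold. KRT81 lay at 2.70, 2.75 and 3.36 with PBS and at 3.61, 3.70 and 5.15 with Pirfenidone, again without overlap, and rose by 1.22 (SE 0.27, 95% interval 0.66 to 1.78, adjusted p = 0.0135), which is 2.33-fold. Both genes had their highest value on the Pirfenidone array of replicate 3, and replicate 3 was the highest of the PBS arrays too. In the 3 runs the differences of same-run arrays were 1.73, 1.28 and 1.13 for KRT86 and 1.79, 0.92 and 0.95 for KRT81. Even at its highest, KRT81 in H1975 stayed below every A549 array, of which the lowest was 7.04.

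The dimmer KRT83 probe, which also lists KRT86, moved in the same way. It lay at -4.09, -4.13 and -2.97 with PBS and at -2.86, -2.90 and -1.08 with Pirfenidone, and rose by 1.45 (SE 0.37, adjusted p = 0.0259). The brighter KRT83 probe lay at 2.09, 2.18 and 2.49 with PBS and at 2.22, 2.22 and 3.09 with Pirfenidone, where the groups overlapped and the difference was 0.26 (SE 0.18, adjusted p = 0.452). Its target list holds KRT81, KRT85 and KRT86 beside KRT83, so for KRT83 itself the probes disagreed, and KRT83 did not count as called.

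KRT14 lay at -2.16, -1.89 and -2.17 with PBS and at -1.26, -0.98 and -0.13 with Pirfenidone, without overlap. It rose by 1.29 (SE 0.38, 95% interval 0.50 to 2.07, adjusted p = 0.0479), which is 2.44-fold and close to the threshold. KRT17 went from -1.93, -1.69 and -2.01 to -1.04, -0.80 and -0.02, a difference of 1.26 (SE 0.41, adjusted p = 0.0772) that was not called. Same-numbered arrays of this comparison came from the same run and deviated together, and with the replicate number as a block KRT17 was called as well (1.26, adjusted p = 0.0147), which made 4 keratins. In the runs the differences were 2.04, 0.91 and 0.91 for KRT14 and 1.99, 0.88 and 0.90 for KRT17, the same run standing out for both. The third basal keratin, KRT15, differed by 0.21 (SE 0.30, adjusted p = 0.771).

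These calls rest on few arrays. Without the Pirfenidone array of replicate 3 no keratin was called, and KRT86 differed by 0.95 (adjusted p = 0.0535), KRT81 by 0.72 (adjusted p = 0.0299, under 2-fold) and KRT14 by 0.96 (adjusted p = 0.25). Without the PBS array of replicate 1 none was called either, with adjusted p of 0.0524, 0.0638 and 0.132, and without the PBS array of replicate 2 only KRT86 was (1.31, adjusted p = 0.0373). KRT14 kept its call only without the Pirfenidone array of replicate 1 (1.52, adjusted p = 0.0446) among the 6 arrays left out in turn. In a fit of only the 6 arrays compared 0 keratins were called, with adjusted p of 0.0766 to 0.176 for the 3. The KRT14 call also ended with the authors' table (1.25, adjusted p = 0.0528), without a filter on dim probes (adjusted p = 0.0687) and with scan day as a block (1.30, adjusted p = 0.0789). It held with replicate number, run or slide as a block (adjusted p = 0.0093, 0.0091 and 0.0284).

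**Figure D5:**
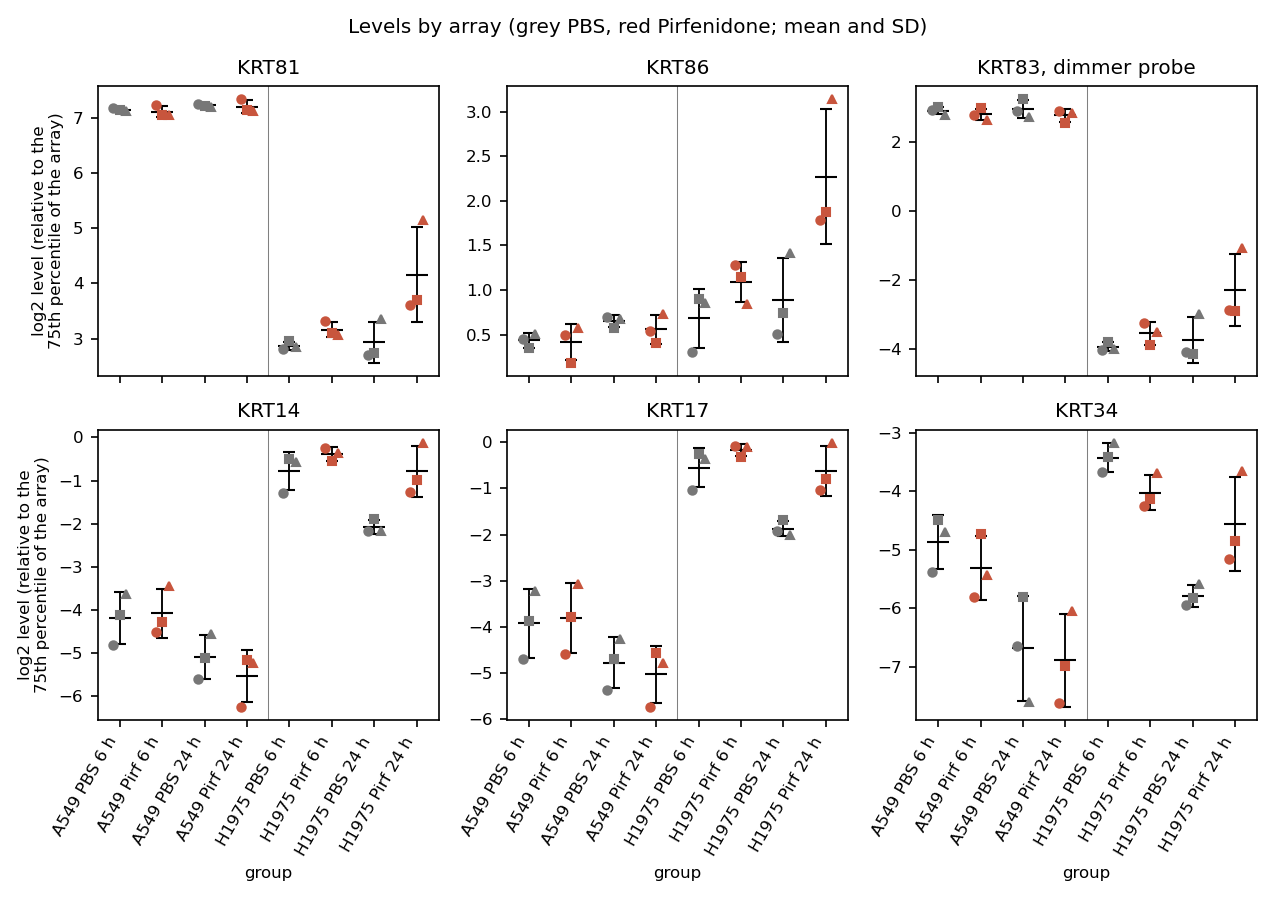
Log2 level on each array (points; circle, square and triangle are replicates 1, 2 and 3) with mean and SD (n = 3) per group, PBS in grey and Pirfenidone in red, for KRT81, KRT86, the dimmer KRT83 probe, KRT14, KRT17 and KRT34. In H1975 at 24 h the treated arrays lie above the PBS arrays in all 6 panels, with replicate 3 the highest, and no such step is seen in A549.

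Other keratins of H1975 at 24 h missed the threshold. KRT34 lay at -5.95, -5.83 and -5.58 with PBS and at -5.16, -4.85 and -3.65 with Pirfenidone, a difference of 1.23 (SE 0.45, adjusted p = 0.111). KRT32 pointed down, from -3.91, -3.86 and -4.58 to -4.82, -4.81 and -5.92, a difference of -1.07 (SE 0.43, adjusted p = 0.15). KRT16, singled out after its values were seen, lay at -3.37, -3.26 and -3.42 with PBS and at -2.24, -2.35 and -1.43 with Pirfenidone at 24 h, and at -3.91, -3.49 and -3.73 and at -2.58, -2.88 and -1.87 at 6 h. Its groups did not overlap at either time, and the differences of 1.34 and 1.27 had adjusted p of 0.318 and 0.614. At 6 h the adjusted p was 0.179 with only the arrays compared and 0.0199 with slide as a block, which called KRT16 at both times.

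Of the 5 simple keratins tested in H1975, KRT80, given above, had the interval farthest from 0 at 6 h (-1.30 to -0.49), which reached past the 2-fold limit, and an interval of -0.79 to 0.02 at 24 h. For the other 4, at 24 h KRT7 differed by 0.07 (95% interval -0.29 to 0.42), KRT18 by -0.09 (-0.28 to 0.11) and KRT19 by 0.09 (-0.49 to 0.66), while KRT8 lay at 4.37, 4.42 and 3.89 with PBS and at 4.35, 4.35 and 3.98 with Pirfenidone. The intervals of all 5 at 24 h lay inside the 2-fold limit. At 6 h the differences of the 4 without KRT80 lay between -0.03 and 0.10.

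The difference between the lines in the Pirfenidone change was tested directly. At 24 h it was 1.47 (SE 0.40, adjusted p = 0.131) for KRT86, 1.24 (SE 0.38, adjusted p = 0.175) for KRT81, 1.73 (SE 0.53, adjusted p = 0.179) for KRT14 and 1.50 (SE 0.59, adjusted p = 0.287) for KRT17, so 0 of 29 keratins were called by limma, beside 0.193% of all probes, and 7 had an unadjusted p under 0.05. Without the A549 arrays of replicate 3 at 24 h it was again 0 of 29, with 17 probes called in place of 46. At 6 h it was 0 of 29 beside 0.0336% of all probes, and 1 had an unadjusted p under 0.05. The rise in H1975 was therefore not shown to differ from A549. With run as a block KRT14 was called at 24 h (1.73, adjusted p = 0.0445). The change at 24 h was not shown to differ from that at 6 h either, with 0 of 29 called in A549 (0.0294% of all probes) and in H1975 (0.0042%). There 0 and 3 keratins had an unadjusted p under 0.05, and in H1975 these were KRT34, KRT81 and KRT86. The A549 count without the arrays of replicate 3 at 24 h was 0 as well, with 3 probes called in place of 7.

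Time in culture was read from PBS arrays. From 6 h to 24 h 1 of 29 keratins fell in H1975, beside 0.0839% of all probes that fell (0.315% in either direction), and 6 had an unadjusted p under 0.05. This was KRT34, which lay at -3.67, -3.42 and -3.18 at 6 h and at -5.95, -5.83 and -5.58 at 24 h, a difference of -2.36 (SE 0.45, adjusted p = 0.0177). The call was lost without replicate 2 or 3 at 6 h or replicate 1 or 2 at 24 h, with adjusted p between 0.0644 and 0.0955, and with only the arrays compared (0.0597). KRT14 and KRT17 differed by -1.29 (SE 0.38, adjusted p = 0.133) and -1.32 (SE 0.41, adjusted p = 0.179). With run as a block KRT14 (adjusted p = 0.0194) and KRT17 (adjusted p = 0.0131) were called too. This comparison shares its PBS arrays at 24 h with the Pirfenidone comparison. The treated arrays at 24 h lay at -1.26, -0.98 and -0.13 for KRT14, overlapped with the PBS arrays at 6 h (-1.28, -0.49 and -0.57) and were all above the PBS arrays at 24 h. In A549 0 keratins were called by limma between the times, beside 0.109% of all probes, and 5 had an unadjusted p under 0.05. Without the arrays of replicate 3 at 24 h the count was again 0, with 13 probes called in place of 26. The largest was KRT6C, well above background on all 3 PBS arrays at 6 h and on none at 24 h. Set against the floor described above, its mean was 2.90-fold lower at 24 h. The difference was not called (limma adjusted p = 0.360) and was -0.78 with normexp background correction.

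Genes around the keratin network were read from lists of 20 linkers (desmosomal and plakin proteins that anchor filaments), 10 transcription factors of epithelial differentiation and 13 other intermediate filament genes, of which 14, 9 and 11 were tested. Between the lines with PBS at 6 h, 3 linkers were higher and 3 lower in H1975, and 3 factors were higher and 2 lower. At 24 h 4 linkers were higher and 2 lower, and 3 factors were higher and 2 lower. Among the other filament genes 1 was higher and 4 were lower at either time. Over all probes tested 32.4% and 32.9% were called at these times. OVOL1 and GRHL2, factors of the epithelial state, were not well above background on the PBS arrays of A549 and were at least 39.7-fold and 16.5-fold higher in H1975 at 6 h, with larger bounds at 24 h. The neurofilament genes NEFL and NEFH were lower in H1975, NEFL by at least 48.2-fold at 24 h, while at 6 h 1 of 3 H1975 arrays measured it above background, and NEFH by at least 11.2-fold and 4.43-fold. In the 4 Pirfenidone comparisons 0 of 14 linkers and 0 of 9 factors were called by limma, beside 0.0126% to 1.89% of all probes, and 0 linkers and 0 to 2 factors per comparison had an unadjusted p under 0.05. The only filament gene called was PRPH, the intermediate filament gene of peripheral neurons, in H1975 at 24 h. It lay at -1.11, -0.99 and -0.30 with PBS and at -0.08, -0.05 and 1.67 with Pirfenidone, a rise of 1.31 (SE 0.38, adjusted p = 0.0483), again with replicate 3 the highest in both groups.

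Limits of the layout bear on these values. Within a line, the place of an array on its slide was the same for all arrays of a treatment and time, so place and group cannot be told apart. All A549 arrays of a replicate number shared 1 slide, and the H1975 PBS array of replicate 1 at 24 h lay on a slide of its own. No slide held arrays of both lines, so slide and line cannot be told apart either.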

How the data were processed

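RNA of 24 samples was labeled with a single dye and hybridized to Agilent whole-genome arrays, which the authors scanned and read with Feature Extraction. The deposited scanner files hold spot intensities, including a processed intensity that the software had background-subtracted. The authors also deposited a table of log2 values of the same arrays, centered on the median of each probe (largest absolute probe median 5e-04), which served only as an alternative. Depth has no meaning for arrays, so precision is limited by 3 arrays per group.

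Control spots and outlier flags were left out, spots of a probe were averaged, and log2 processed signals were set relative to the 75th percentile of each array. A single model of 8 groups was fitted across 23827 probes with limma 3.58.1 in R 4.3.3 (lmFit, eBayes, Benjamini-Hochberg), and all p-values are two-sided. The family-wise permutation named in the study's methods was not used, because 3 arrays against 3 cannot reach its threshold. The procedure was run on simulated arrays with independent noise and planted changes larger than the Pirfenidone changes called here. That run does not bear on changes of the size called, nor on arrays that deviate together. Keratins called in any of 12 comparisons, and tested simple and basal keratins, were described by array, and other keratins by class. From the other lists the genes called with Pirfenidone were named, and, of those called between the lines at both times, the 4 with the largest difference at either time. Values below background entered that order. The members and lists were chosen with earlier results of these data known.

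Whether replicate numbers pair arrays was checked by correlating the deviations of same-numbered arrays from their group means. The numbers paired PBS and Pirfenidone in A549 at 6 h (r 0.58 to 0.70) and in H1975 at 24 h (0.46 to 0.72) and did not in A549 at 24 h (-0.10 to 0.39) or in H1975 at 6 h (-0.68 to 0.43), where arrays of the same run correlated at 0.50 to 0.82. Alternatives were normexp correction (offset 50), quantile normalization, the authors' table, other filters, Holm adjustment, no fold limit, the mean of a gene's probes, blocks of replicate number, run or slide, only the arrays compared, and each array left out in turn. Scan day as a block was added after seeing the data. The sequence of 1 probe is not reported here.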

Additional observations from a re-analysis of the deposited data

How the results depend on the processing

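Counts of called keratins kept within 1.5 times of the main count unless given here, and no single keratin that was called changed direction under any alternative. Without a fold limit the lines differed in 20 keratins at 6 h and 21 at 24 h, and with Holm adjustment in 7 at 24 h. Leaving out each array in turn gave 11 to 16 at 6 h and 11 to 13 at 24 h. For Pirfenidone in H1975 at 6 h, where none was called, normexp correction and no fold limit each gave 1 (KRT80), and slide as a block gave 2 (KRT16 and KRT222, the latter not well above background on these arrays). For Pirfenidone in H1975 at 24 h, slide as a block gave 6 (KRT14, KRT16, KRT17, KRT32, KRT81 and KRT86), the replicate block gave 4, only the arrays compared gave 0, Holm adjustment gave 0, and leaving out arrays gave 0 to 3. The difference between the lines in the change at 24 h had 1 call with run as a block (KRT14) and 0 with the replicate block, where KRT14 had an adjusted p of 0.0522. Between the times with PBS, slide as a block gave 2 in A549 (KRT6C and KRT32). In H1975 blocks of replicate number, run or slide gave 3 each (KRT14, KRT17 and KRT34), while normexp correction, only the arrays compared and Holm adjustment gave 0 each, and leaving out arrays gave 0 to 1. The filter on all 24 arrays gave 0 as well, because it left KRT34 out of the test. The cause of the other shifts was not tested. Of 1176 single-keratin values under alternatives, 44 in 13 results had another sign, all of uncalled simple keratins near 0. The replicate block changed no other count by over 1.5 times. Probes near background, such as those of KRT6A, KRT6C, KRT13 and KRT34, limit what 3 arrays per group can show.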
